A study of Rattus norvegicus with 90 samples.

Results

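The 250 longest transcripts of the rat transcriptome table were examined as a group. They were chosen by length alone, as the 250 largest of the 40071 entries with an Ensembl transcript identifier, with ties taken in the order of the identifiers. No expression value entered the choice. They ran from 9233 to 25658 bases, with a median of 11352 bases, against a median of 1281 bases over all transcripts. The shortest of the 250 had 9233 bases and the longest transcript outside the group had 9204, so that the boundary falls within a continuous range of lengths. RNA had been measured in 90 poly-A-enriched libraries of primary Sprague-Dawley rat cells from 3 cell types, which were hepatocytes, renal proximal tubular epithelial cells (renal cells) and cardiomyocytes. Each cell type was kept with vehicle or with a low or a high dose of thioacetamide-S-oxide for 9 or 24 h. Thioacetamide-S-oxide is the reactive metabolite through which the liver toxicant thioacetamide acts. The study's methods give maintenance medium as the vehicle of hepatocytes and renal cells and do not describe the cardiomyocytes. The doses were 0.025 and 0.125 mM in hepatocytes, 0.125 and 0.500 mM in renal cells and 0.50 and 1.50 mM in cardiomyocytes, so that "low" and "high" are not the same concentration in different cell types. Each of the 18 conditions had 5 libraries, and per the study's methods the hepatocytes and renal cells were bought as frozen stocks.

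All were isolated cells in culture, without the tissue around them. Nothing in the sources says that the libraries of a group came from separate animals, so a p-value here measures the spread between these samples, which may be technical. One vehicle library of the hepatocytes at 24 h (MS-183) was left out throughout, since only 249303 of its estimated counts fell on transcripts. The other 89 libraries held 10519414 to 55822031 estimated counts on transcripts. The deposited tables name transcripts only by identifier, and no table at hand paired an identifier with a gene or a sequence. Cell-type markers and the genes behind the long transcripts were therefore not checked, and most transcripts are called here by their length.

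Long messenger RNAs come from several sources. Some encode giant proteins of the cytoskeleton, muscle, extracellular matrix and lipid transport, some encode ordinary proteins and carry long untranslated ends, and some are long isoforms of genes that also make shorter ones. A long transcript takes the polymerase longer to complete, and it offers more places for a break. When RNA is captured by its poly-A tail, a broken molecule keeps only the part on the tail side of the break, and a longer molecule loses more. A longer transcript also yields more fragments per molecule, so that its read count overstates its number of molecules. For this reason levels of different transcripts were ranked in TPM, the deposited unit that divides by length, and libraries were compared in CPM, the counts on a transcript scaled to a common total over all transcripts. Limits set in counts or CPM are easier to reach for a long transcript.

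The long transcripts were widely detected. With at least 5 estimated counts in at least 5 libraries taken as detected, 236 of the 250 (94.4%) were detected, against 59.9% of the other 39821 transcripts, and none of the 250 was without a count in every library. A longer transcript collects more counts at the same number of molecules. Per length the 250 had a lower median than the other detected transcripts. The sides were not chosen alike, since all 250 enter, detected or not, while undetected transcripts outside the group are left out. How the 250 stand per length against all other transcripts was not examined. In vehicle cultures at 9 h the median level of the 250 was 1.09 TPM in hepatocytes, 3.02 TPM in renal cells and 3.26 TPM in cardiomyocytes. The other detected transcripts had medians of 3.13, 4.69 and 4.11 TPM in the same order. The median number of counts went the other way, with 9.74 against 3.67 CPM in hepatocytes, 25.4 against 5.43 CPM in renal cells and 28.2 against 4.81 CPM in cardiomyocytes.

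Counts were concentrated on few members. Over all libraries the transcript of 17592 bases alone held 14.3% of the counts of the 250, the 10 largest held 40.4%, the 50 largest 74.8% and the 100 largest 91.5%. The share of the 17592-base transcript was 6.49% in hepatocytes, 18.1% in renal cells and 15.6% in cardiomyocytes. Statements on the summed counts below therefore weigh a handful of transcripts heavily. Reads shared between similar transcripts were divided among them by the quantification. Only 49 of the 236 detected members (20.8%) had whole counts, to within 0.01, in all libraries, against 36.5% of the other detected transcripts. Among the members, 2 of 9363 bases had identical values in every library, and for a pair of 9858 bases the estimated counts were equal in 78 of 89 libraries and differed in 11. The first pair cannot be told apart, and the values of the second are uncertain.

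The 10 longest transcripts were either expressed in every condition or nearly silent. The 23724-base transcript ranged between group means of 16.4 and 34.8 TPM over the 18 conditions, the 23512-base transcript between 4.81 and 13.2 TPM, and the 23508-base transcript between 0.567 and 2.72 TPM. The remaining 7, among them the longest of all at 25658 bases, stayed at group means of 0.0919 TPM or less.

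The share of counts on the long transcripts differed between cell types. In vehicle cultures at 9 h the 250 took 1.33% ± 0.06 of transcript counts in hepatocytes (SD, n = 5), 1.99% ± 0.07 in renal cells (n = 5) and 2.43% ± 0.18 in cardiomyocytes (n = 5). The libraries of the 3 cell types did not overlap, with hepatocytes between 1.27% and 1.40%, renal cells between 1.89% and 2.08% and cardiomyocytes between 2.25% and 2.66%. As deposited TPM, which sums over molecules, the shares were 0.132%, 0.209% and 0.259%. Without the 5 members that held the most counts over all libraries the share remained lower in hepatocytes, at 1.10% against 1.34% in renal cells and 1.56% in cardiomyocytes.

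**Figure D1:**
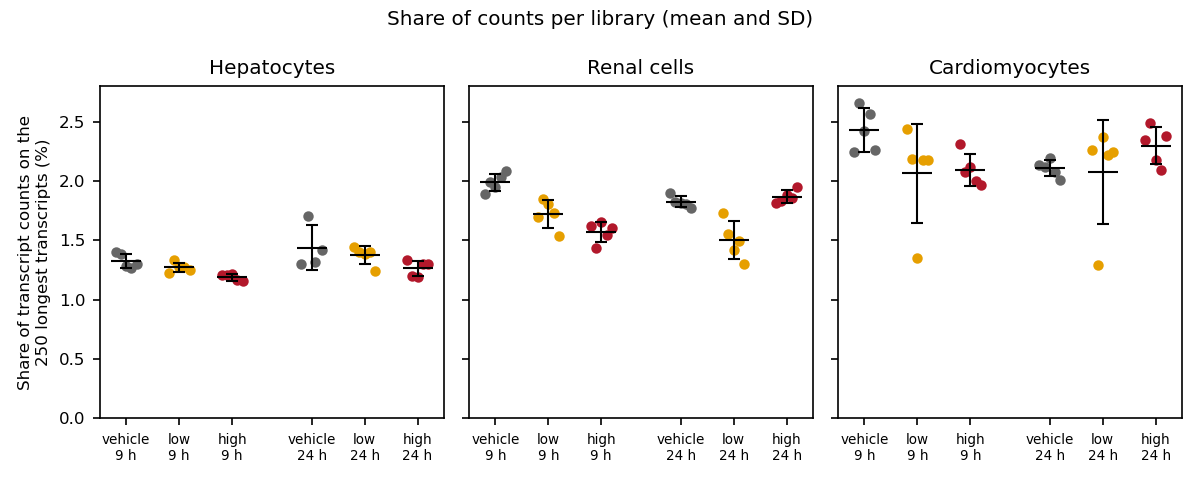
Share of all transcript counts that fell on the 250 longest transcripts (%, linear axis from 0), one point per library, with the group mean and SD as a bar, for each cell type, dose and time. The hepatocytes lie at 1.15% to 1.71%, the renal cells at 1.30% to 2.08%, and the cardiomyocytes at 1.96% to 2.66% apart from 1 low-dose library at 1.35% (9 h) and 1 at 1.29% (24 h).

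Most members reached a mean of 1 CPM, a limit on counts and not per length, in all cell types. In vehicle cultures at 9 h, 57.2% of the 250 did so in hepatocytes, renal cells and cardiomyocytes alike, against 52.3% of the other detected transcripts, and 48 (19.2% against 25.5%) reached it in no cell type. A further 24 (9.6% against 7.14%) were at 1 CPM in renal cells and cardiomyocytes but not in hepatocytes, 14 (5.6% against 3.28%) in cardiomyocytes alone, 10 (4% against 4.39%) in hepatocytes alone and 7 (2.8% against 3.66%) in renal cells alone. The 10 particular to hepatocytes included the 14073-base transcript, at 688 ± 133.7 CPM in hepatocytes (n = 5) and below 1 CPM on average in each of the other cell types. The 11622-base transcript, at 116.7 ± 7.64 CPM in hepatocytes, stood at 0.322 ± 0.116 CPM in renal cells and 0.159 ± 0.056 CPM in cardiomyocytes. The opposite pattern was seen for the 9891-base transcript, which had a mean of 1472 CPM in cardiomyocytes, 169.4 CPM in renal cells and 0.153 CPM in hepatocytes.

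The most abundant members per length also differed. The 17592-base transcript led in renal cells (324 ± 14.6 TPM) and cardiomyocytes (330 ± 24.2 TPM) and stood at 41.7 ± 3.92 TPM in hepatocytes. The means in renal cells and cardiomyocytes differed by less than 1 SD, and the log2 fold change of 0.16 between them was under the threshold used below. In hepatocytes the highest were the 9567-base transcript at 76.0 ± 4.25 TPM, the 14744-base transcript at 66.3 ± 2.96 TPM, the 14073-base transcript at 59.6 ± 11.4 TPM and the 14279-base transcript at 58.1 ± 2.60 TPM. The last pair did not differ beyond its spread. In cardiomyocytes the 17592-base transcript was followed by those of 9891 bases (198 ± 4.94 TPM), 14714 bases (167.4 ± 13.1 TPM) and 10599 bases (165.8 ± 5.68 TPM), the last pair within 1 SD of each other. The 14279-base transcript was the most even of these across the cell types, with 58.1, 77.1 and 65.5 TPM in hepatocytes, renal cells and cardiomyocytes.

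Each pair of groups was then tested over all transcripts that passed a filter on low counts, with edgeR's quasi-likelihood test. A transcript was past the threshold when its Benjamini-Hochberg adjusted p over all transcripts tested was 0.05 or less and its fold change on the natural-log scale was 0.41 or more in either direction. Between 52 and 78 of the 250 did not pass the filter, depending on the comparison, and percentages of members are of those that did. Against hepatocytes, 62.7% of the members tested were past the threshold in renal cells and 65.8% in cardiomyocytes, near the 61.4% and 64.1% of all transcripts tested. In renal cells 83 were higher (43%, against 33.9% of all transcripts) and 38 lower (19.7% against 27.5%). In cardiomyocytes 83 were higher (43% against 33.5%) and 44 lower (22.8% against 30.6%). The members' median log2 fold change was 0.42 in both comparisons against 0.07 and 0.00 for the other transcripts. Between cardiomyocytes and renal cells, 87 of 193 members were past the threshold, or 45.1% against a background of 45.9%, with 53 higher in cardiomyocytes (27.5% against 23.1%) and 34 lower (17.6% against 22.8%). The median rose with length over the whole transcriptome in the comparison of renal cells with hepatocytes, from -0.10 in the shortest of 10 equal-sized length bins to 0.54 in the longest, so that this lean was not particular to the 250.

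Among the 12 comparisons with vehicle, the percent past the threshold departed most from that of all transcripts in renal cells at 9 h. At the low dose 27 of 188 members tested were past the threshold, 21 lower and 6 higher. That is 14.4% of the members against 6.69% of all transcripts tested, with 11.2% against 4.41% for falls and 3.19% against 2.28% for rises. At the high dose 57 of 194 were past it, 38 lower and 19 higher, or 29.4% against 19.1%, and for falls 19.6% against 10.9%. The members with a rise at the high dose were 9.79%, near the 8.16% of all transcripts.

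The long transcripts have more counts than most, so the comparison was repeated among transcripts with more counts. Such transcripts were past the threshold less often than all transcripts tested, in either direction and at either dose. Among transcripts at a mean log2 CPM of 3 or more, 12 members were past the threshold at the low dose and all 12 fell, which is 8.33% of such members against 2.82% of all such transcripts, and rises were 0% against 1.01%. At the high dose 33 fell (22.3% against 8.11%) and 6 rose (4.05% against 4.97%). The shift was small for a typical member: the median log2 fold change was -0.11 at the low and -0.12 at the high dose, and -0.00 and 0.00 for the other transcripts. Without MS-130 the low-dose median was -0.066. At the low dose 76.1% of the members had a fold change below 0, against 50.5% of the others. Since both doses share their vehicle libraries, their values are not independent of each other.

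The share of counts was lower as well. The 5 vehicle libraries at 9 h gave 1.89%, 1.99%, 1.95%, 2.03% and 2.08%. The low dose gave 1.70%, 1.85%, 1.80%, 1.73% and 1.54%, and the high dose 1.62%, 1.43%, 1.65%, 1.55% and 1.60%. Every treated library was below every vehicle library, which without the 5 largest members held at the high dose but not at the low dose (1.11% to 1.32% against 1.27% to 1.40%). The log2 ratio to vehicle was -0.21 at the low and -0.34 at the high dose, and without the 5 largest members it was -0.11 and -0.20. Fragment length, read as length minus effective length in the tables, was 159.4 to 166.9 bases in the vehicle libraries and 149.7 to 171.7 and 152.5 to 168.5 bases in the low- and high-dose libraries. The libraries with the lowest share at each dose, MS-130 and MS-132, also had the shortest fragments. Leaving out each library in turn kept the ratio between -0.23 and -0.17 at the low and between -0.36 and -0.31 at the high dose. The part of fragment length in these shares was not tested otherwise. In these bulk cultures fewer cells of one kind and less RNA per cell cannot be told apart.

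**Figure D2:**
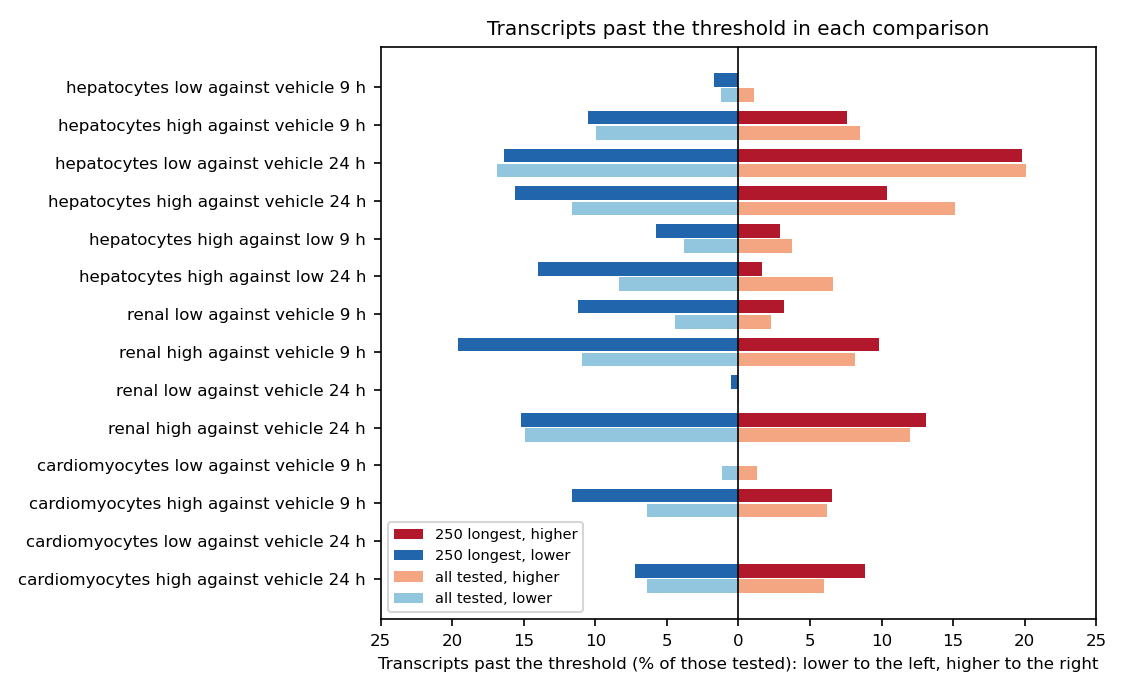
Percent of transcripts tested that were past the threshold in each comparison, lower to the left of 0 and higher to the right, for the 250 longest transcripts (dark bars) and for all transcripts tested (light bars). The dark bar to the left exceeds the light one most in renal cells at 9 h (19.6% against 10.9% at the high dose) and in hepatocytes at the high against the low dose at 24 h (14% against 8.34%).

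The 17592-base transcript, the most abundant of the 250 in renal cells, was among the 5 largest members left out above. It stood at 4102, 4370, 4048.5, 4376 and 4458 CPM in the vehicle libraries at 9 h, at 2900, 3437, 3264, 3225 and 2815 CPM at the low dose and at 2582, 2227, 2693, 2434 and 2509 CPM at the high dose. The 3 groups did not overlap. The log2 fold change at the high dose was -0.75 (SE 0.05, adjusted p = 5.97e-08 by edgeR). Its low-dose change was under the fold-change threshold.

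The largest fall among members with no overlap of groups was that of the 10339-base transcript. Its vehicle libraries at 9 h held 29.5, 33.4, 33.2, 30.97 and 32.3 CPM and its high-dose libraries 6.25, 4.92, 5.49, 5.88 and 7.12 CPM. The log2 fold change was -2.40 (SE 0.08, adjusted p = 4.39e-10 by edgeR). The low-dose libraries lay between these groups, at 13.0 to 15.5 CPM, with a log2 fold change of -1.15. At 24 h the same order returned in other libraries, with 28.0 to 31.5 CPM in vehicle, 10.4 to 17.2 CPM at the low dose and 5.39 to 6.70 CPM at the high dose. It was the only member past the threshold at the low dose at 24 h with all libraries kept, and it was past it in all 4 renal comparisons. In hepatocytes, where its level was higher by an order of magnitude (358 ± 32.03 CPM in vehicle at 9 h), it reached the threshold only at the high dose at 24 h (log2 fold change -0.70). In cardiomyocytes it was past it as lower at the high dose at 9 h (log2 fold change -1.56).

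The largest rise at the high dose was that of the 10470-base transcript. It held 0.00, 0.93, 0.88, 1.33 and 2.05 CPM in the vehicle libraries at 9 h and 18.9, 16.5, 13.9, 15.8 and 13.8 CPM at the high dose, a log2 fold change of 3.92 (SE 0.37, adjusted p = 2.46e-06 by edgeR). At 24 h it was again higher, at 7.19 to 15.1 CPM against 0.00 to 2.47 CPM. At the low dose its means stayed at 0.868 CPM (9 h) and 0.599 CPM (24 h), beside vehicle means of 1.04 and 1.12 CPM. The largest fall at the low dose at 9 h, that of the 15085-base transcript, was less secure. Its vehicle libraries held 23.1, 21.0, 20.7, 38.3 and 26.5 CPM and its low-dose libraries 2.99, 14.8, 3.15, 12.03 and 0.00029 CPM, a scatter far wider than that of the transcripts above. Its log2 fold change of -1.92 (SE 0.61, adjusted p = 0.035 by edgeR) was not past the threshold with DESeq2.

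At 24 h few long transcripts of renal cells changed at the low dose. It had 1 of 193 members past the threshold (0.518% against 0.0622%, lower against 0.017% and none higher against 0.0452%), and DESeq2 put 6 there (3.11% against 0.356%). Without MS-145, edgeR put 6 there as well (3.06% against 0.295%). The number at the high dose was near the background, at 56 of 198 or 28.3% against 26.9%, with 26 higher (13.1% against 12%) and 30 lower (15.2% against 14.9%). The share of counts at the high dose, at 1.87% ± 0.05 (n = 5), overlapped that of vehicle at 1.82% ± 0.05 (n = 5). Without the 5 largest members it was higher than vehicle in every library, at 1.36% to 1.45% against 1.27% to 1.32% (log2 ratio 0.13 beside 0.035 with them). The share at the low dose was lower and did not overlap vehicle, with 1.73%, 1.56%, 1.42%, 1.49% and 1.30% against 1.77% to 1.90%. The lowest of these, MS-145, had the shortest fragments of the renal libraries (141.8 bases), and without each library in turn the log2 ratio of -0.28 ranged from -0.34 to -0.24. Without the 5 largest members it was -0.25, again with no overlap.

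Among members at a mean log2 CPM of 3 or more, ENSRNOT00000076783 (14828 bases) had the largest rise at the high dose at 24 h. It held 4.41, 4.14, 3.502, 3.09 and 3.55 CPM in vehicle and 11.3, 10.8, 15.7, 13.1 and 11.4 CPM at the high dose. Its log2 fold change was 1.68 (SE 0.13, adjusted p = 1.49e-06 by edgeR), and the groups did not overlap. At 9 h it was also higher at the high dose, from 6.01 ± 1.27 to 11.9 ± 1.53 CPM (n = 5 each), yet at the low dose it was lower, at 2.49 ± 1.51 CPM (log2 fold change -1.26, adjusted p = 0.0203 by edgeR), with overlapping groups.

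ENSRNOT00000023226 (10570 bases) had the largest fall at 24 h under the same limit on level. It held 23.0, 21.0, 25.9, 23.5 and 22.9 CPM in vehicle, 15.4, 13.4, 14.8, 11.4 and 6.09 CPM at the low dose and 4.52, 3.02, 4.95, 3.63 and 5.10 CPM at the high dose. The log2 fold change at the high dose was -2.51 (SE 0.12, adjusted p = 5.37e-08 by edgeR). The low-dose libraries lay between the other groups without touching them, though the change was not past the threshold. At 9 h its high-dose fall was smaller, from 24.8 ± 0.99 to 12.2 ± 1.09 CPM (log2 fold change -0.998). It was near 0 in hepatocytes, at a mean of 0.182 CPM or less in every condition.

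The renal changes at the high dose recurred over time. The libraries of 9 and 24 h are separate, and 34 members were past the threshold at both times, which is 59.6% of the 57 at 9 h and 60.7% of the 56 at 24 h. All 34 kept their direction, 13 higher and 21 lower. Among the other transcripts 1992 were past it at both times, 59.5% of those at 9 h and 42.1% of those at 24 h, and 95 of these changed direction. The difference between members and others was not tested. In cardiomyocytes 13 members were past the threshold at both times, all in the same direction, as were 949 of 1000 others. In hepatocytes 6 of 12 members went in opposite directions, as did 475 of 1084 others.

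**Figure D3:**
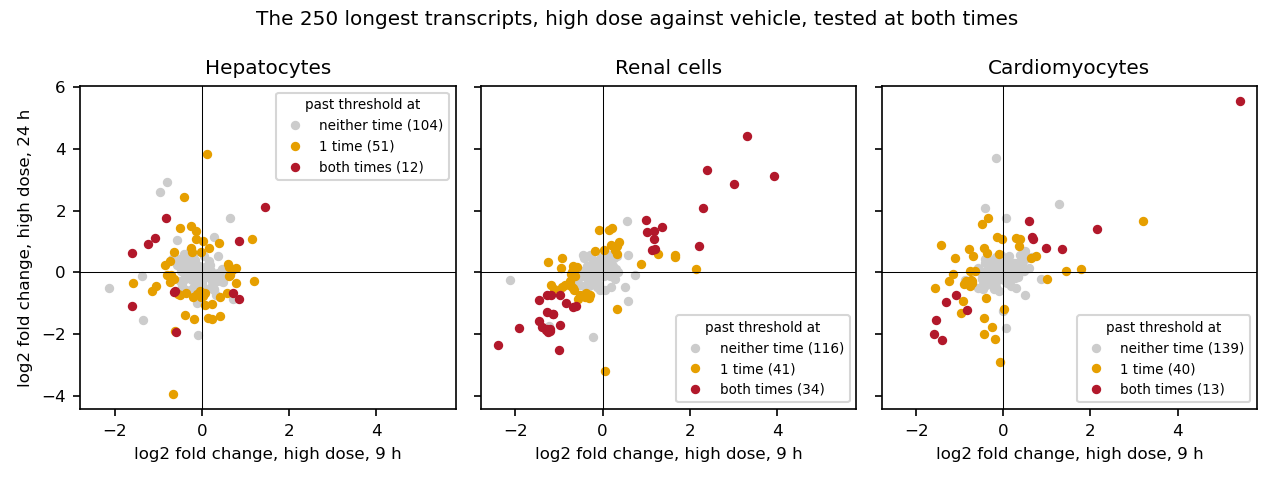
Log2 fold change of high dose against vehicle at 9 h (horizontal) and 24 h (vertical), linear axes, one point per member tested at both times, colored by whether it was past the threshold at neither, 1 or both times (number in parentheses). In renal cells the 34 members past it at both times changed the same way at 9 and 24 h (lower left and upper right), as did the 13 in cardiomyocytes, whereas 6 of the 12 in hepatocytes changed in opposite ways.

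Cardiomyocytes showed a smaller departure at 9 h. At the high dose 36 of 198 members were past the threshold, 23 lower and 13 higher, or 18.2% against 12.6% of all transcripts, with 11.6% against 6.41% for falls and 6.57% against 6.22% for rises. The high-dose libraries at 9 h held 40216151 to 44028858 estimated counts on transcripts and the vehicle libraries 17583672 to 25562619. Dose and depth thus went together, and the part of depth was not tested. Among transcripts at a mean log2 CPM of 3 or more 19 members fell (12.7% against 5.34%) and 8 rose (5.33% against 4.9%). At 24 h it was 31 of 193 (17 higher, 14 lower), or 16.1% against 12.4%, and the lean to falls was absent (7.25% lower against 6.39%, 8.81% higher against 6.01%). The median log2 fold change of the members was -0.06 at 9 h, where leaving out single vehicle libraries moved it to -0.030 (without MS-152) or -0.11 (without MS-155), and 0.07 at 24 h, where it was 0.020 without MS-177. The share of counts was 2.09% ± 0.14 at the high dose at 9 h against 2.43% ± 0.18 in vehicle, and 2.30% ± 0.16 against 2.11% ± 0.07 at 24 h (n = 5 each), with overlapping libraries both times. The higher share at 24 h was not seen in TPM, where the log2 ratio was -0.042 against 0.12 in counts. Without the 5 largest members the ratios were -0.12 at 9 h, beside -0.21 with them, and 0.098 at 24 h.

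At the low dose no member of the cardiomyocytes was past the threshold at either time by edgeR. At 9 h that was 0 of 192, against a background of 2.41% (1.28% higher, 1.14% lower), and at 24 h 0 of 190 with a background of 0%. Unadjusted p-values under 0.05 were found for 41 members at 9 h (21.4% against 20.8% of all transcripts) and 37 at 24 h (19.5% against 11.9%). DESeq2 put 5 members past the threshold at 9 h (2.6% against 4.07%) and 9 at 24 h (4.74% against 1.06%). Each low-dose group held 1 library apart from the others. MS-158 at 9 h gave a share of 1.35% against 2.17% to 2.43% in the other 4, and MS-172 at 24 h gave 1.29% against 2.22% to 2.37%. These libraries had the shortest fragments of the cardiomyocyte libraries, at 138.2 and 130.6 bases against 156.02 to 177.9 bases elsewhere. Without MS-158, 5 members were past the threshold at 9 h (2.56%), and so were 4.4% of all transcripts.

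Several long transcripts changed by large factors in cardiomyocytes. The 10698-base transcript held 168.6 to 190 CPM in the 5 vehicle libraries at 24 h and 44.7, 42.1, 40.7, 29.1 and 36.4 CPM at the high dose, a log2 fold change of -2.21 (SE 0.10, adjusted p = 5.96e-08 by edgeR). It was also lower at 9 h, at 23.1 to 39.3 CPM against 74.8 to 87.3 CPM, and in renal cells, where it was low (6.69 ± 1.51 CPM in vehicle at 9 h and 1.70 ± 0.40 at the high dose). Its renal counts were mostly not whole, so that they depend on how shared reads were divided. In low-dose renal cells at 24 h MS-143 held 9.55e-09 CPM beside 1.26 to 2.71 CPM in the rest of the group. The 12093-base transcript was lower at the high dose at 9 h, with 27.5, 42.1, 23.7, 24.4 and 29.9 CPM in vehicle and 15.8, 9.54, 7.89, 7.24 and 9.78 CPM treated. Its log2 fold change was -1.60 (SE 0.23, adjusted p = 0.000137 by edgeR).

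Rises were also seen. The 11090-base transcript held 7.05, 6.30, 6.18, 6.87 and 7.43 CPM in vehicle at 24 h and 20.2, 18.3, 24.5, 21.4 and 24.4 CPM at the high dose (log2 fold change 1.67, SE 0.09, adjusted p = 2.75e-07 by edgeR). In renal cells at 9 h the same transcript fell, from 34.7 ± 1.20 to 17.4 ± 0.83 CPM at the high dose, and it fell in hepatocytes at the high dose at 24 h (log2 fold change -0.80). The 9401-base transcript rose at 9 h from 5.46, 5.10, 4.18, 7.73 and 6.27 CPM to 15.2, 17.04, 14.1, 15.03 and 14.04 CPM (log2 fold change 1.35, SE 0.13, adjusted p = 9e-06 by edgeR). This transcript too fell in renal cells at the high dose at 9 h, from 165.6 ± 10.2 to 101.5 ± 5.09 CPM.

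Between cell types the members past the threshold were shared in part. At the high dose at 9 h, 20 were past it in both renal cells and cardiomyocytes (35.1% of 57 and 55.6% of 36), 17 of them in the same direction, 12 lower and 5 higher. At 24 h it was 17 (30.4% of 56 and 54.8% of 31), 13 in the same direction, 5 higher and 8 lower. Hepatocytes and renal cells had 11 in common at 9 h (35.5% of 31 and 19.3% of 57), of which 5 moved in the same direction, and 16 at 24 h (35.6% of 45 and 28.6% of 56), of which 10 did. Hepatocytes and cardiomyocytes had 5 in common at 9 h (16.1% of 31 and 13.9% of 36), 3 of them in the same direction, and 7 at 24 h (15.6% of 45 and 22.6% of 31), of which 1 was in the same direction. For the other transcripts the shares in common between renal cells and cardiomyocytes were 22.2% and 33.5% at 9 h, with 624 of 744 in the same direction, and 18.9% and 42.3% at 24 h, with 694 of 894 in the same direction. Between hepatocytes and renal cells at 9 h they were 24.4% and 22.1%, with 461 of 739 in the same direction, and at 24 h 30.5% and 28.6%, with 349 of 1353. Between hepatocytes and cardiomyocytes they were 14.9% and 20.4% at 9 h, with 273 of 452 in the same direction, and 16.2% and 33.9% at 24 h, with 206 of 716. These differences between members and others were not tested.

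In hepatocytes the number of long transcripts that changed was close to the background in every comparison with vehicle. At the low dose at 9 h it was 3 (1.73% against 2.34%), all lower (against 1.22% lower and 1.12% higher). At the high dose at 9 h it was 31 (18% against 18.4%), 13 higher (7.56% against 8.48%) and 18 lower (10.5% against 9.95%). At the low dose at 24 h it was 64 (36.2% against 37%), 35 higher (19.8% against 20.1%) and 29 lower (16.4% against 16.9%). At the high dose at 24 h it was 45 (26% against 26.7%), 18 higher (10.4% against 15.1%) and 27 lower (15.6% against 11.6%). The high-dose medians were below those of the other transcripts, at -0.14 against 0.00 at 9 h and -0.10 against 0.02 at 24 h. Single libraries weighed on both, since the median was -0.085 at 9 h without MS-91 and -0.010 at 24 h without MS-182.

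The comparison of the 2 doses did show a lean. At 24 h, 28 members differed between high and low dose, near the background at 15.6% against 14.9%, and 25 of the 28 were lower at the high dose. That is 14% lower against 8.34%, and 1.68% higher against 6.58%. Among transcripts at a mean log2 CPM of 3 or more, 12 were lower (9.3% against 6.59%) and 1 was higher (0.775% against 5.22%). At 9 h it was 15, or 8.67% against 7.55%, with 10 lower (5.78% against 3.82%) and 5 higher (2.89% against 3.73%). The share of counts at 9 h was 1.40%, 1.39%, 1.28%, 1.27% and 1.30% in vehicle, 1.22% to 1.33% at the low dose and 1.21%, 1.20%, 1.22%, 1.16% and 1.15% at the high dose. The high-dose libraries were below all others of that time, also without the 5 largest members (0.923% to 0.982% against 1.01% or more). At 24 h the shares of the 2 doses overlapped, with means of 1.263% at the high and 1.375% at the low dose. Without the 5 largest members they overlapped as well (0.938% to 1.04% against 1.02% to 1.17%).

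At 9 h the largest rise in hepatocytes among members at a mean log2 CPM of 3 or more was that of ENSRNOT00000016797 (9727 bases). It held 7.68, 6.36, 5.79, 6.70 and 6.65 CPM in vehicle and 10.3, 12.2, 8.44, 12.7 and 12.6 CPM at the high dose. The log2 fold change was 0.85 (SE 0.12, adjusted p = 0.000144 by edgeR). In renal cells, where its level was higher, it fell at the high dose, from 48.5 ± 1.03 to 19.7 ± 1.40 CPM at 9 h and from 26.6 ± 2.54 to 11.3 ± 1.25 CPM at 24 h (log2 fold change -1.27 and -1.29, n = 5 each). The opposite directions in these cell types were each past the threshold, and their difference was not tested by an interaction.

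ENSRNOT00000071484 (9603 bases) had the largest fall of such members at the high dose at 9 h. It held 22.2, 15.4, 20.045, 16.1 and 12.1 CPM in vehicle, 11.1, 9.88, 9.90, 9.91 and 8.02 CPM at the low dose and 5.64, 5.40, 6.73, 4.61 and 4.15 CPM at the high dose, so that the 3 groups followed the dose without overlap. Its 9 h log2 fold change was -1.61 at the high dose (SE 0.18, adjusted p = 2.04e-05 by edgeR) and -0.80 at the low dose. At 24 h it went the other way, from 6.79 ± 1.40 CPM (n = 4) in vehicle to 20.4 ± 2.89 CPM at the low and 10.7 ± 2.71 CPM at the high dose (n = 5 each), both past the threshold. In renal cells at 24 h it rose at the high dose, from 17.4 ± 5.84 to 47.3 ± 13.6 CPM. In cardiomyocytes it was at a mean of 0.082 CPM or less in every condition. The 10110-base transcript had the largest fall of such members at the low dose, with 11.455, 11.9, 7.86, 11.4 and 13.6 CPM in vehicle and 4.88, 5.87, 2.89, 6.63 and 5.63 CPM treated (log2 fold change -1.10, SE 0.20, adjusted p = 0.00417 by edgeR).

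**Figure D4:**
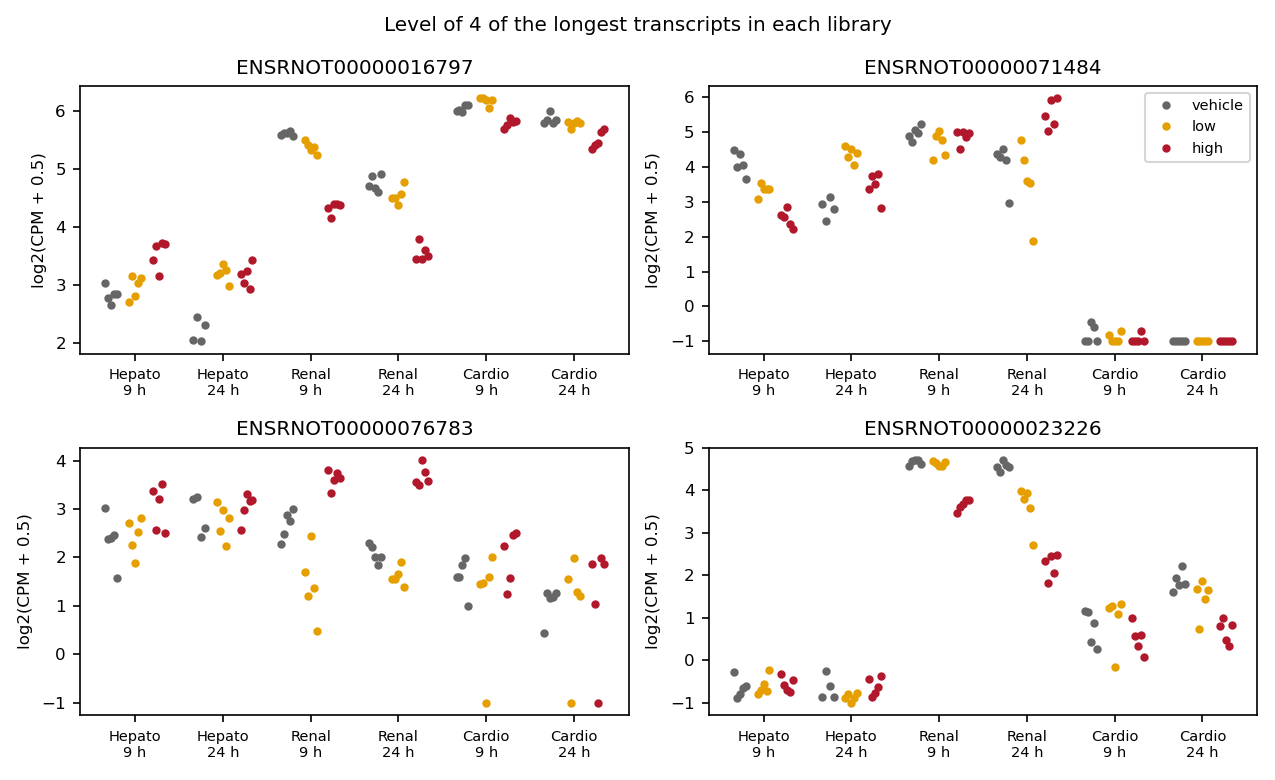
Level of the transcripts named by identifier in each library, as log2(CPM + 0.5), one point per library, colored by dose, for hepatocytes (Hepato), renal cells (Renal) and cardiomyocytes (Cardio) at 9 and 24 h. The 4 vehicle libraries of the hepatocytes at 24 h lie below the treated ones for ENSRNOT00000016797, which falls with the high dose in renal cells, and among the renal groups ENSRNOT00000023226 is lowest at the high dose at 24 h.

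The 24 h comparisons with vehicle in hepatocytes rest on 4 vehicle libraries that stood apart from the other hepatocyte cultures. Of the members with a mean of at least 1 CPM in hepatocytes, 30 (18.8%) were in all 4 above or below every one of the 25 other hepatocyte libraries, 20 of them above and 10 below. For the other detected transcripts this share was 22.6%, with 1694 above and 1608 below among 14620, beside the 20 and 10 among 160 members. In the other 5 hepatocyte groups, 0 to 7 of these members (0% to 4.38%) stood outside all remaining libraries, and 0.027% to 6.70% of the other detected transcripts did. These vehicle libraries also carry numbers (MS-181 to MS-185) outside the run of the other hepatocyte libraries (MS-91 to MS-120). Whether something other than the lack of treatment sets them apart was not tested.

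The members with the largest 24 h changes in hepatocytes, among those at a mean log2 CPM of 3 or more without overlap of groups, show this pattern. The 10465-base transcript held 8.68, 6.37, 6.59 and 5.32 CPM in vehicle at 24 h, 34.8, 42.6, 36.7, 36.1 and 35.6 CPM at the low dose and 21.0, 23.1, 19.4, 28.8 and 23.1 CPM at the high dose. Its log2 fold changes were 2.40 and 1.75, the largest rises of such members at the low and high dose, while the vehicle cultures at 9 h, at 37.7 ± 4.73 CPM (n = 5), were near the low-dose level. At 9 h it was lower at the high dose, at 19.98 CPM on average (log2 fold change -0.83). The 14073-base transcript, restricted to hepatocytes, likewise stood at 143.5, 236, 130.6 and 180.1 CPM in vehicle at 24 h, against 688 ± 133.7 CPM in vehicle at 9 h, 932 ± 100.5 CPM at the low dose and 445 ± 51.6 CPM at the high dose at 24 h. In the comparison of the doses, which does not use these vehicle libraries, it was lower at the high dose by a log2 fold change of -1.04 (SE 0.11, adjusted p = 3.12e-05 by edgeR).

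The falls were of the same kind. The 11622-base transcript held 188, 227, 194 and 209 CPM in vehicle at 24 h and 56.1, 53.0, 53.6, 58.9 and 50.6 CPM at the high dose, a log2 fold change of -1.94 (SE 0.06, adjusted p = 1.7e-08 by edgeR). Its vehicle level at 9 h was 116.7 ± 7.64 CPM, and its high-dose level at 9 h was lower than that, at 72.5 ± 4.06 CPM. The 9401-base transcript held 95.9, 135.4, 104.1 and 112.1 CPM in vehicle at 24 h and 46.1, 42.1, 37.4, 43.2 and 34.4 CPM at the low dose (log2 fold change -1.52), beside 35.2 ± 3.41 CPM in vehicle at 9 h. The 17592-base transcript, which fell in renal cells, rose in hepatocytes at the high dose at 24 h, from 594, 876, 613 and 718 CPM to 1542, 1302, 1313, 1416.5 and 1278 CPM (log2 fold change 0.94, SE 0.11, adjusted p = 6.6e-05 by edgeR). At 9 h its level at the high dose was 741 CPM on average beside 603 ± 55.2 CPM in vehicle, a change under the threshold.

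The 11622-base transcript changed more often than any other member, in 8 of the 12 comparisons with vehicle. It was lower in 3 comparisons in hepatocytes and higher in 5 in the other cell types, where it was near 0 in vehicle. In renal cells it went from 0.322 ± 0.116 to 3.18 ± 0.335 CPM at the high dose at 9 h and from 0.466 ± 0.187 to 10.7 ± 0.594 CPM at 24 h. In cardiomyocytes it went from 0.159 ± 0.056 to 7.23 ± 1.03 CPM at 9 h and from 0.063 ± 0.039 to 3.196 ± 0.762 CPM at 24 h (n = 5 each). The levels of hepatocytes and of the other cell types thus came closer under the high dose without meeting. This transcript was singled out after its values were seen.

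Over the 12 comparisons with vehicle, 28 of the 250 members passed the filter in no comparison and 81 were tested and never past the threshold. Of the members tested at least once, 63.5% were past it at least once, against 60.7% of all transcripts so tested. They were 44 only as higher (19.8% against 20.4%), 54 only as lower (24.3% against 21.7%) and 43 in both directions (19.4% against 18.7%). By this count, which leaves out how often a member was past the threshold, the members were near the background. Comparisons that share vehicle libraries enter these sums together.

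The size of the shift followed length only in part. In renal cells at 9 h the longest of 10 equal-sized length bins, which starts near 4.9 kb and includes the members, had medians of -0.05 and -0.06 at the low and high dose, with 7.53% and 21.1% past the threshold, whereas the members had medians of -0.11 and -0.12. The shortest bin had a median of -0.06 at the high dose as well, so that the medians there did not fall steadily with length. In hepatocytes at the high dose at 24 h they went from 0.11 in the shortest bin to -0.05 in the longest. In cardiomyocytes after 24 h of the low dose they went the other way, from -0.04 to 0.06, with 0.12 for the members and no transcript past the threshold.

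**Figure D5:**
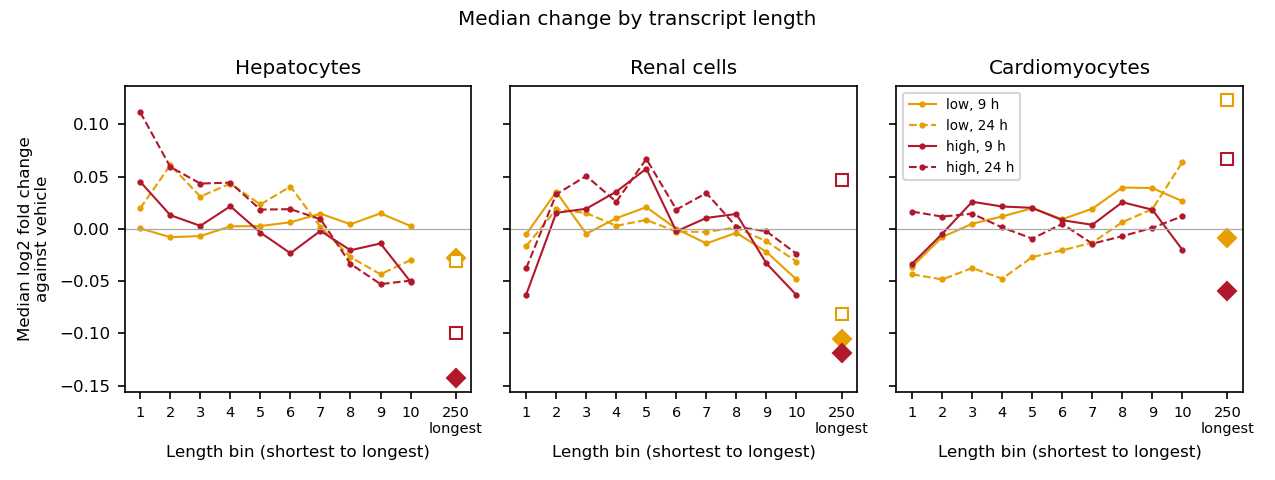
Median log2 fold change against vehicle in 10 equal-sized bins of transcript length, from shortest (1) to longest (10), and for the 250 longest transcripts (symbols at the right, filled at 9 h and open at 24 h), by dose and time. The members lie below the longest bin in renal cells at 9 h (-0.11 and -0.12 against -0.05 and -0.06) and above it in cardiomyocytes at 24 h.

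The members varied more between cultures of a group than other transcripts did in 14 of 18 groups and less in 4. Over transcripts with a mean of at least 8 CPM in the group, the median SD of log2(CPM + 0.5) in renal vehicle cultures at 9 h was 0.079 for the members and 0.059 for the other transcripts. In hepatocyte vehicle cultures at 24 h it was 0.226 against 0.117 over 4 libraries. The 4 groups the other way were renal vehicle cultures at 24 h (0.116 against 0.117) and 3 low-dose groups with a short-fragment library and a wide spread, with 0.320 against 0.383 in renal cells at 24 h and 0.344 against 0.374 (9 h) and 0.402 against 0.424 (24 h) in cardiomyocytes.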

How the data were processed

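RNA was sequenced from 90 stranded poly-A libraries of hepatocytes, renal cells and cardiomyocytes. The authors pseudo-aligned the reads with kallisto 0.42.4 (submitters' processing notes) to the Rnor_6.0 transcriptome and deposited, for each of 65166 targets, the length, the effective length, the estimated count and the TPM. Estimated counts need not be whole, since reads are divided among similar transcripts. The 25095 targets that are genomic intervals were left out, and counts were scaled to CPM over the 40071 transcripts. The reference gene table held no Ensembl identifiers, so none of the transcripts was matched to a gene, and planned gene lists and cell-type markers were not used.

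Groups came from the sample labels. Estimated counts were rounded and each of 17 pairs of groups was fitted on its own over all transcripts with edgeR 4.0.16 in R 4.3.3 (filterByExpr, TMM, glmQLFit, glmQLFTest). The standard error is the log2 fold change divided by the square root of the F statistic. Medians, shares and length bins are descriptions without a test. Alternatives were DESeq2 1.42.0, upper-quartile normalization, no filter, one fit per cell type, the hepatocyte vehicle library MS-183 kept, shares of deposited TPM or without the 5 largest members, and each library left out in turn. The members named are the 10 longest, the 5 with the highest TPM in vehicle at 9 h in each cell type, and, per comparison with vehicle, the largest rise and fall among members past the threshold at a mean log2 CPM of 3 or more and no overlap of groups. The members, lists and rules were chosen with earlier results of these data known. Identifiers are printed for 4 members only.

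The functions were tested on simulated counts for renal cells at the high dose at 24 h (17798 transcripts): edgeR recovered 33 of 65 changed by 0.8, 48 of 72 changed by 1 and 52 of 63 changed by 2 on the log2 scale, none in the wrong direction, and called 6 of 17598 unchanged. The 89 libraries used held 10519414 to 55822031 estimated counts on transcripts.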

Additional observations from a re-analysis of the deposited data

Results flagged for a closer look

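Of 36 sets of 4 or 5 libraries examined (18 shares of counts and 18 percentages of members at 1 CPM or more), 6 held a library far from the rest of its group by Dixon's test, where chance gives about 1 in 20, or 1.8. For the share of counts these were MS-115 of hepatocytes at the low dose at 24 h (1.24%), MS-158 of cardiomyocytes at the low dose at 9 h (1.35%) and MS-172 of cardiomyocytes at the low dose at 24 h (1.29%). For the percent of the 250 at 1 CPM or more they were MS-152 of vehicle (74%), MS-158 of the low dose (67.6%) and MS-162 of the high dose (72.8%), each in cardiomyocytes at 9 h. The hepatocyte vehicle library left out at 24 h, MS-183, gave a share of 1.95% of counts and 0.0783% of TPM. It had the shortest fragments of all libraries (126.2 bases) and only 249303 estimated counts on transcripts.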

How the results depend on the processing

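The number of members past the threshold stayed within 1.5 times its value with DESeq2 in 14 of 17 comparisons, without a filter in 16 of 17, with one fit per cell type in 11 of 14 and with upper-quartile normalization in 17 of 17. The exceptions were the low doses with few calls: renal cells at 24 h (1, with 6 by DESeq2 and 9 in one fit), cardiomyocytes at 9 h (0, with 5, 4 and, without a filter, 1) and cardiomyocytes at 24 h (0, with 9 and 8). In one fit these were 4.31%, 1.93% and 3.86% of members against 0.748%, 3.45% and 1.04% of all transcripts, and without a filter 0.418% against 0.979%. The cause was not tested. With MS-183 kept, hepatocytes at 24 h had 32 members past the threshold at the low dose (18.4% against 19.4% of all transcripts; median log2 fold change -0.25, log2 ratio of shares -0.16) and 13 at the high dose (7.74% against 10.4%; -0.29 and -0.28). One fit per cell type moved the median of cardiomyocytes at the high dose at 9 h to -0.11.

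The log2 ratio of shares moved by more than the spread with TPM in 6 comparisons: hepatocytes at the high dose at 9 h (-0.19), low dose at 24 h (0.055, against -0.063 in counts), high dose at 24 h (-0.079) and high against low dose at 9 h (-0.14), cardiomyocytes at the high dose at 24 h (-0.042, against 0.12) and renal cells against hepatocytes (0.67). Without the 5 largest members it moved in 7: hepatocytes at the high dose at 9 h (-0.20) and high against low dose at 9 h (-0.14), renal cells at the high dose at 9 h (-0.20) and 24 h (0.13), cardiomyocytes at the high dose at 9 h (-0.12), renal cells against hepatocytes (0.29) and cardiomyocytes against hepatocytes (0.51). The low-dose fall of the 15085-base transcript in renal cells at 9 h was not past the threshold with DESeq2 (log2 fold change -1.96), and the other 16 named changes were.

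Leaving out each library in turn gave 1 to 6 members for low-dose renal cells at 24 h (6 without MS-145, 3.06% against 0.295% of all transcripts, and 2 without MS-141, 1.03% against 0.0561%), 0 to 5 for cardiomyocytes at the low dose at 9 h (5 without MS-158, 2.56% against 4.4%) and 0 to 3 at 24 h (3 without MS-174, 1.56% against 0.751%). Medians lay between -0.18 and -0.085 for high-dose hepatocytes at 9 h, between -0.061 and 0.089 (low) and between -0.16 and -0.010 (high) at 24 h, and between -0.11 and -0.030 for high-dose cardiomyocytes at 9 h. The upper ends at 24 h came without MS-182. Log2 ratios of the shares to vehicle in hepatocytes at 24 h lay between -0.11 and 0.031 (low) and between -0.23 and -0.091 (high), the upper ends again without MS-182. No paired analysis was possible because the replicate numbers of the labels are not shared between groups. The members that did not pass the filter, 52 to 78 per comparison, have no result, and whether more depth would bring them in was not tested.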
